A study of Mus musculus with 2 samples.

Results

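Glycolysis and sterol synthesis are described here in Bcl11b-deficient against wild-type CD8+ T cells, through 31 genes chosen by name: 16 of glycolysis and 15 of sterol synthesis and its control. They are 31 of 27597 genes named on the array, and all 31 have a probe there. The deficient cells carried the genotype Bcl11bF/F/dLck-iCre: Cre under the distal Lck promoter deletes floxed Bcl11b alleles in T cells, and the comparison cells came from wild type mice. All mice were infected with Listeria monocytogenes-OVA and sampled at day 6, and CD8+ T cells were isolated by negative selection to a stated purity over 90%. The labels give neither the age nor the number of mice behind an RNA sample, nor whether the wild-type mice carried Cre. Each of 2 biological replicates is 1 two-colour Agilent array, with deficient RNA in Cy5 and wild-type RNA in Cy3 both times, so a dye effect on a gene and an effect of genotype cannot be told apart.

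Glycolysis turns glucose into pyruvate in the cytosol, and lactate dehydrogenase reduces pyruvate to lactate, which lets the pathway run on in dividing cells. CD8+ T cells raise glycolytic flux when they become effector cells. Sterol synthesis starts from acetyl-CoA, passes through mevalonate, isoprenoids and squalene, and ends in cholesterol, which growing cells need for membrane. Its enzymes are under shared control of the membrane-bound transcription factor SREBP2, encoded by Srebf2, which Insig1 holds back when sterol is plentiful.

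The ratio used throughout is the log2 ratio of deficient over wild-type signal, given for each array and as the mean with the SD (n = 2). Testing required that 1 and the same colour exceed background clearly on each array, and 9931 genes met this. In limma, 957 of these passed an adjusted p of 0.05, or 9.64%, with 364 higher and 593 lower in deficient cells (3.67% and 5.97%). The fit gave all genes a common standard error, 0.42, so a call amounts to a mean ratio beyond 1.18 in size. The deficient channel was well above background at 26.0% and 31.1% of gene spots, and negative control spots had median signals of 968 and 707 scanner units in it, against 326.5 and 406 in the wild-type channel. The median of all genes was -0.22 on replicate 1 and -0.01 on replicate 2. Bcl11b, the deleted gene, stood at -0.69 and -2.95 on its brightest probe (limma adjusted p = 6.6e-04), and was called in 6 of 11 other ways of processing the arrays. A second passing probe gave -1.09 and -2.03, with the deficient channel dim on both arrays. The labels do not say whether either probe lies in the deleted part.

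Of the 31 members, 28 could be tested: all 16 of glycolysis and 12 of sterol synthesis. Pfkfb3, which makes the bisphosphate that activates phosphofructokinase, was higher in deficient cells. Ldhb, the heart-type subunit of lactate dehydrogenase, and Sqle, squalene epoxidase, were called lower, but both passed the filter through the wild-type channel alone. Of all 3131 genes with a dim deficient channel 3014 lay below 0 and 16.6% were called lower. Neither Ldhb nor Sqle could be tested with both channels required, and neither has another probe on the array. These 3 calls are 10.7% of the members tested, beside 9.64% of all genes, a share near the background. By pathway the calls were 2 of 16 for glycolysis and 1 of 12 for sterol synthesis. None of the other tested members of either pathway passed.

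**Figure D1:**
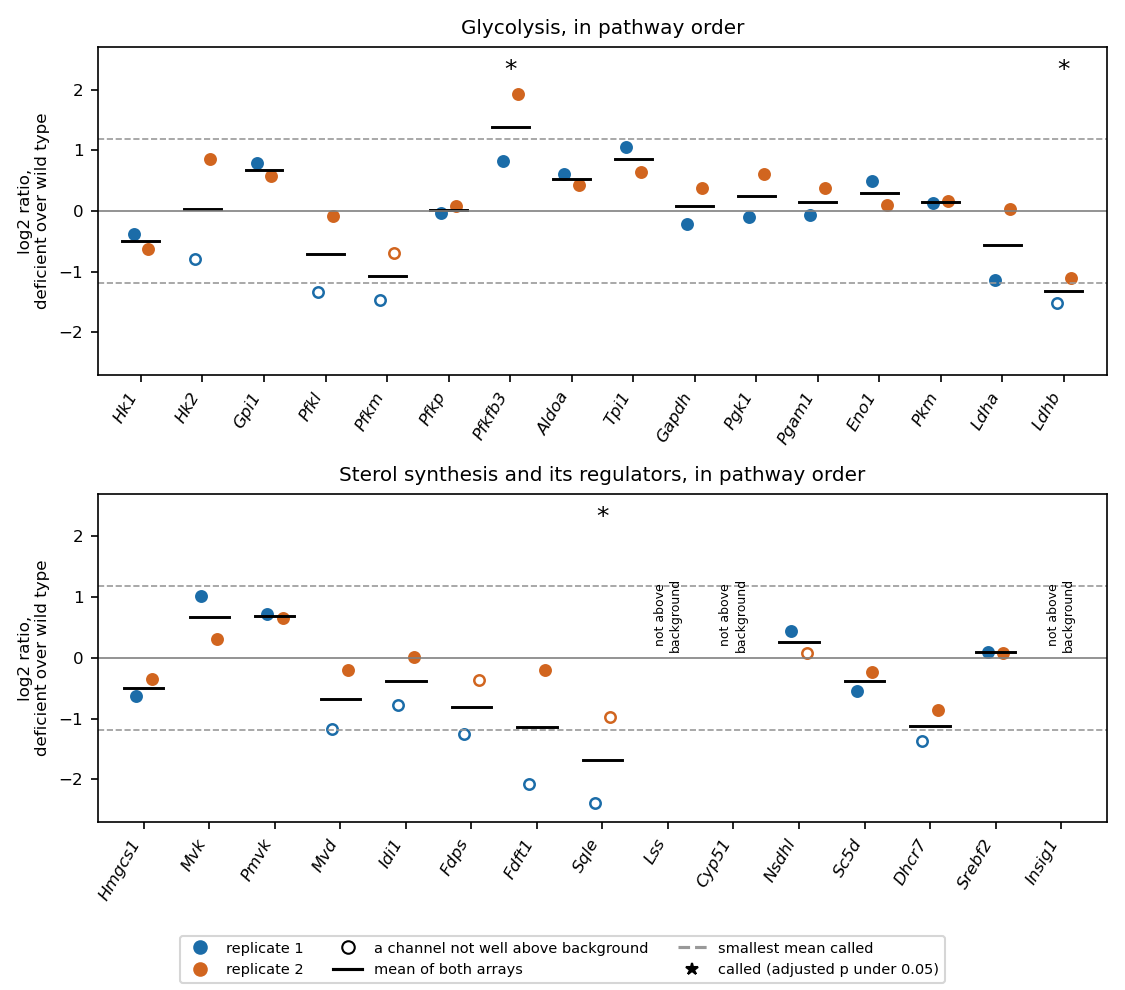
Log2 ratio of deficient over wild type (vertical axis) for each member in pathway order, with 1 point per array, the mean as a bar, and open points where a channel was not well above background on that array. Pfkfb3 lies above the dashed limit of 1.18, Ldhb and Sqle lie below its negative, and the other members' means lie between the limits.

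Taken as pathways, the members of glycolysis had a median of 0.12 and those of sterol synthesis a median of -0.44, where all genes tested had -0.12. On replicate 1 the medians were -0.09 and -0.71, and on replicate 2 they were 0.27 and -0.20. The sterol median minus the glycolysis median was thus -0.62 and -0.47. With 2 arrays an exact sign-change test cannot go below p = 0.5, so the difference was not tested. It was smaller, -0.11, over genes with both channels well above background on both arrays, where 12 glycolysis and 5 sterol members remain, and -0.14 with median centring in place of loess. The sign of the glycolysis median turned with median centring, to -0.54, where the median of all genes was -0.41. Along glycolysis 6 members were above 0 on both arrays, 4 below 0 on both, and 6 had opposite signs. Along sterol synthesis these numbers were 4, 7 and 1, and over all 9931 genes tested they were 3227, 4126 and 2578. Where the deficient channel was dim on an array, 5 of 6 sterol members lay below 0 on both arrays. So did 3 of 4 such glycolysis members and 2347 of all 3131 such genes.

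Glucose enters the pathway through hexokinase. Hk1, the form found in most tissues, stood at -0.38 on replicate 1 and -0.62 on replicate 2, below 0 on both. Hk2, the form that activated T cells induce, stood at -0.80 and 0.85, with opposite signs and the deficient channel well above background on replicate 2 alone. Neither passed (limma adjusted p = 0.504 and 0.978). Gpi1, which isomerises glucose phosphate, was above 0 on both arrays at 0.78 and 0.57 (limma adjusted p = 0.338). Its probe was printed 10 times on each array, and the spots had an SD of 0.05 on both, with values from 0.68 to 0.87 and from 0.50 to 0.67. The spread between spots of 1 array was therefore smaller than the gap between the arrays.

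Phosphofructokinase commits sugar to the pathway, and its subunits lay apart on their brightest probes. Pfkp, the platelet form, was next to 0 at -0.04 and 0.08. Pfkl, the liver form, stood at -1.33 and -0.09, and Pfkm, the muscle form, at -1.46 and -0.69 (limma adjusted p = 0.0837). Pfkm minus Pfkp was -1.43 on replicate 1 and -0.77 on replicate 2. Pfkl minus Pfkp was -1.30 and -0.17. Both gaps rest on the brightest Pfkp probe. A second passing Pfkp probe gave -1.49 and -0.31, close to Pfkm on replicate 1 and below Pfkl on both arrays. The deficient channel of that probe was well above background on replicate 2 alone. On neither array was Pfkm well above background in the deficient channel, so its level there was not measured, and without background correction its ratio was -0.57. Pfkl was well above background in that channel on replicate 2 alone. These differences between subunits are values without a test.

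Pfkfb3 was the 1 member called higher. Its wild-type signal was 1233 scanner units on replicate 1 and 1574 on replicate 2, and its deficient signal 2216 and 7739. The dyes have different floors, so the raw signals of the channels are not compared with each other. The deficient signal was higher on replicate 2 than on replicate 1, which is not particular to Pfkfb3. Gapdh (3964.5 and 14596) and Pgk1 (2757 and 9383) did the same, while dimmer members such as Eno1 and Mvk were lower on replicate 2. The log2 ratio was 0.83 and 1.93, or 1.38 ± 0.78 (SD, n = 2; limma adjusted p = 0.0169; chromosome 2, 11389805 to 11389864, minus strand, build NCBI36). All channels of this probe were well above background. Other Pfkfb3 probes, dim in both channels on both arrays, gave -0.09 and 0.13, and 0.29 and 0.75. They did not pass the filter. The gene passed in 5 of 11 other settings, between 0.75 and 1.49, and did not pass with Feature Extraction's own ratios (1.48, limma adjusted p = 0.175) or the background surface that program fitted (1.37, limma adjusted p = 0.0650). Replicate 1 alone would put it at 0.83.

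The enzymes that split and oxidise the sugar lay at or above 0 on average. Aldoa, the aldolase of most tissues, stood at 0.61 and 0.43, and Tpi1, triose phosphate isomerase, at 1.06 and 0.64, both above 0 on both arrays. Tpi1 had the second highest mean of the pathway, 0.85 ± 0.30 (SD, n = 2), without passing (limma adjusted p = 0.205). Gapdh, the oxidising step and a common reference gene, stood at -0.21 and 0.38, and Pgk1, the first step that yields ATP, at -0.11 and 0.61. Pgam1, a mutase, followed at -0.07 and 0.38. On their brightest probes these 3 share a pattern: just below 0 on replicate 1 and above it on replicate 2. For Pgk1, whose probe was also printed 10 times, 8 usable spots on replicate 1 ran from -0.18 to -0.06 and 10 on replicate 2 from 0.53 to 0.67. The spots of the arrays did not overlap, so for this probe the disagreement lies between the arrays and not between spots. A second passing Pgk1 probe was above 0 on both arrays, at 0.22 and 0.64, so the sign on replicate 1 depends on the probe.

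Eno1, enolase, stood at 0.49 and 0.10, and Pkm, pyruvate kinase, at 0.14 and 0.17 on its brightest probe, with a second probe of the opposite sign on average, -0.23. Gapdh, Pgk1, Ldha, Aldoa, Eno1 and Pgam1 belong to genes with processed copies in the genome, and a probe cannot be assumed to separate the gene from a near-identical copy.

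Lactate dehydrogenase is built from subunits of which Ldha favours the making of lactate and Ldhb its use. Ldhb had wild-type signals of 877.5 and 1089 scanner units and deficient signals of 1117 and 1082. On replicate 1 the deficient signal was not well above background, and the negative controls of that channel had a median of 968. The log2 ratio was -1.52 and -1.11, or -1.32 ± 0.29 (SD, n = 2; limma adjusted p = 0.0242; chromosome 6, 142447540 to 142447599, minus strand). It passed in 3 of 10 other settings, between -2.05 and -0.74, and not without background correction (-0.74, limma adjusted p = 0.0773) or with the fitted background surface (-1.21, limma adjusted p = 0.0755). Ldha stood at -1.14 and 0.03, with no call (limma adjusted p = 0.455). Ldhb minus Ldha was -0.38 and -1.14, in the same direction on both arrays and without a test.

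**Figure D2:**
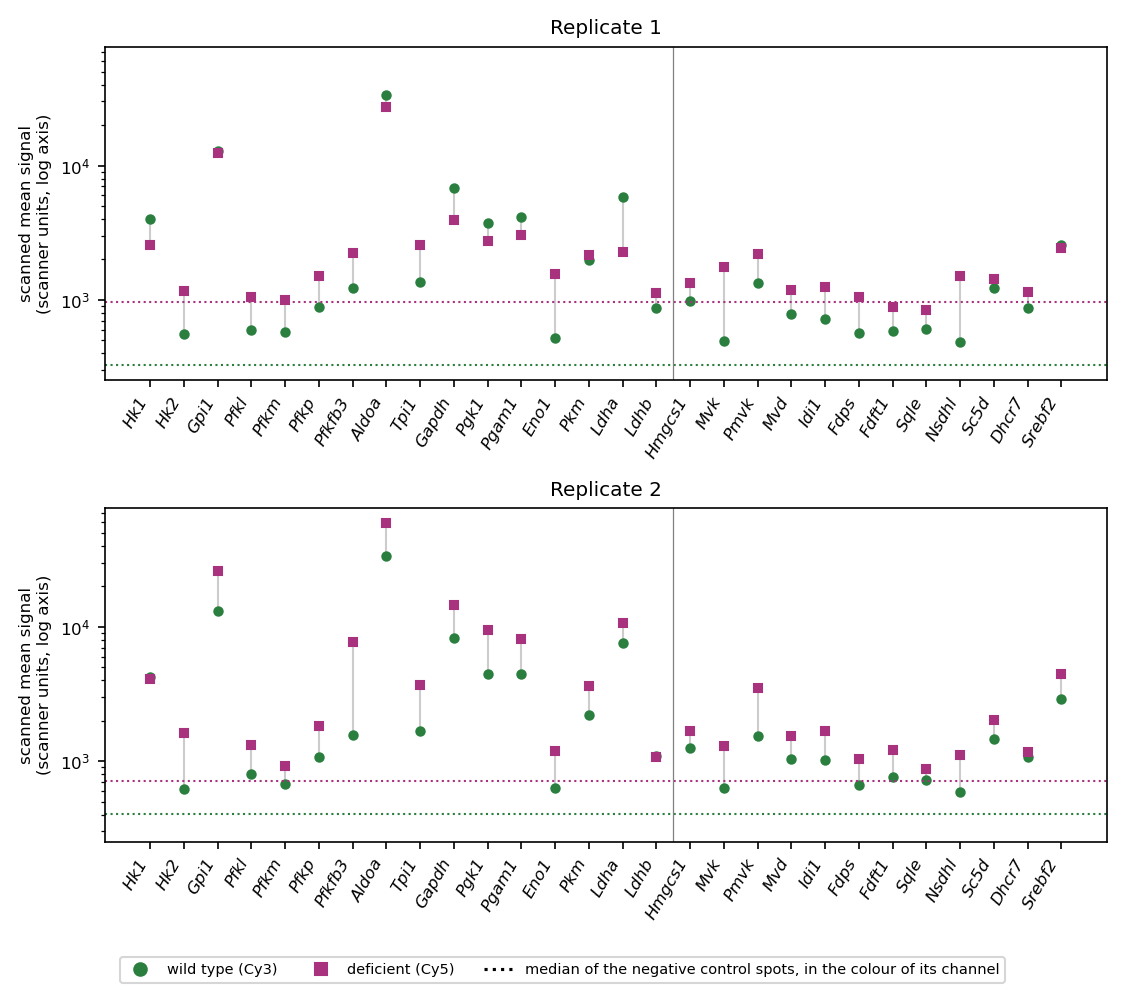
Scanned mean signal (log axis, scanner units) of the probe that stands for each tested member, wild type as circles and deficient as squares, with the negative control medians of each channel as dotted lines. Most glycolysis members lie far above those lines, while many sterol members lie close to the line of the deficient channel, and Sqle and Fdft1 lie below it on replicate 1.

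The early enzymes of sterol synthesis did not share a direction. Hmgcs1, which condenses acetyl-CoA with acetoacetyl-CoA, stood at -0.63 and -0.35. Mvk and Pmvk, the kinases that phosphorylate mevalonate in turn, were above 0 on both arrays, Mvk at 1.03 and 0.31 and Pmvk at 0.72 and 0.66. Their means of 0.67 ± 0.51 and 0.69 ± 0.04 (SD, n = 2) were the highest of the pathway and did not pass (limma adjusted p = 0.351 and 0.325). Mvd, which decarboxylates the product, lay on the other side at -1.17 and -0.20. Idi1, the isomerase that follows, stood at -0.78 and 0.01. For Mvd and Idi1 the deficient channel was well above background on replicate 2 alone. The array files place the Idi1 probe on chromosome 2, and the RefSeq table places the gene on chromosome 13, so its assignment is uncertain.

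Farnesyl diphosphate and squalene are made next. Fdps, which makes that intermediate for sterols and for protein prenylation, stood at -1.25 and -0.36. Fdft1, squalene synthase and the first enzyme committed to sterols, stood at -2.08 and -0.20, far apart (limma adjusted p = 0.0610). Both lay below 0 on both arrays without passing. The deficient signal of Fdps was dim on both arrays, so its level there was not measured, and without background correction its ratio was -0.43. The deficient signal of Fdft1 was dim on replicate 1, at 880 scanner units against a negative control median of 968. A second Fdft1 probe, which did not pass the filter, gave 0.37 and 0.31.

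Sqle, the oxygen-dependent and rate-limiting step after squalene, has only a bound in deficient cells. Its wild-type signal was 605 and 726 scanner units, and its deficient signal was 840.5 and 873. The deficient signal thus lay below the negative control median of 968 on replicate 1 and above the 707 of replicate 2, and neither was well above background. The log2 ratio was -2.40 and -0.98, or -1.69 ± 1.00 (SD, n = 2; limma adjusted p = 0.00201; chromosome 15, 59160510 to 59160569, plus strand). Set against the lowest normalised deficient signal that cleared background, or its own where higher, the wild-type signal was 1.58-fold higher. This bound is open to dye bias, and the gene passed the filter through the wild-type channel alone. The gene passed in 4 of 10 other settings, between -2.68 and -0.84, among them the fitted background surface (-1.66, limma adjusted p = 0.0358) and not Feature Extraction's ratios (-2.68, limma adjusted p = 0.0660).

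After squalene the coverage was thin. Lss, which closes the ring, and Cyp51, which removes a methyl group from lanosterol, have 3 probes each and none passed the filter on dim probes, so neither gene has a measured ratio. Nsdhl, a decarboxylating dehydrogenase, stood at 0.44 and 0.08 and its wild-type signal cleared background on replicate 1 alone. Sc5d, a desaturase, stood at -0.55 and -0.23. Dhcr7, the reductase that yields cholesterol, stood at -1.37 and -0.86, or -1.11 ± 0.36 (SD, n = 2; limma adjusted p = 0.0688). Dhcr7 was below 0 on both arrays, under the limit for a call, with the deficient channel well above background on replicate 2 alone.

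Of the control genes Srebf2 alone was measured. It stood at 0.10 and 0.08 on its brightest probe, while its other passing probes averaged -1.35 and -1.47. Insig1 has 2 probes, neither of which passed the filter. On the brightest probes the arrays lay closest together for Srebf2, Pkm and Pmvk, whose SD was 0.02, 0.03 and 0.04.

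The members differed in how far their deficient signal stood above background, a property that the ratio itself helps to set. Of the 28 members tested, 17 had both channels well above background on both arrays, and 1 of these passed, Pfkfb3, where 6.82% of all such genes did. Their median was 0.15, beside 0.06 for the 5720 genes of that kind. Another 10 had a deficient channel that was dim on at least 1 array, with a median of -0.94, beside -0.68 over the 3131 such genes, and of these 10 members 2 were called lower, Ldhb and Sqle, where 16.6% of such genes were. All 10 had a lower ratio on replicate 1 than on replicate 2, and all such genes had medians of -1.12 and -0.27 there. These genes passed the filter through the wild-type channel alone, and 117 of the 3131 lay above 0, as did Hk2 among the members. The dim members were 4 of 16 in glycolysis and 6 of 12 in sterol synthesis. Over members with all channels above background, the median was 0.20 for glycolysis and 0.09 for sterol synthesis. Whether the dimmer signals account for the lower sterol median was not tested.

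**Figure D3:**
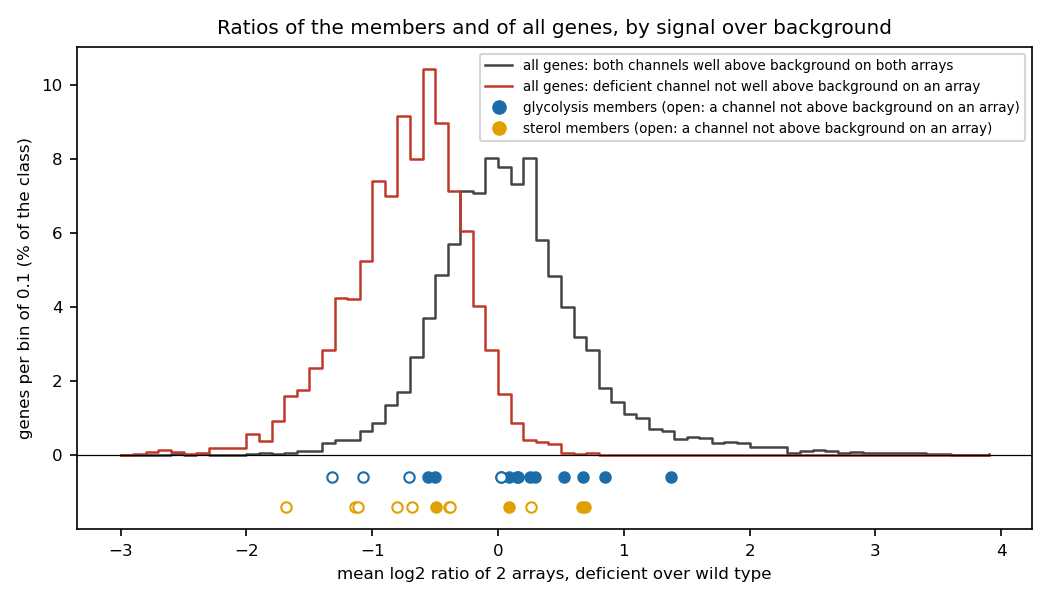
Share of all genes per bin of mean log2 ratio (horizontal axis), for genes with both channels well above background on both arrays (grey line) and genes whose deficient channel was not (red line), with the members as points below, open where a channel was dim. The red curve is centred at a median of -0.68 and the grey one at 0.06, and the open points of both pathways lie mostly under the red curve.

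Probes of 1 gene did not always agree. The members have 66 probes on the array, 38 of which passed the filter, and 8 members had more than 1 of these. In 5 of the 8 the probes differed in the sign of the mean ratio. For Srebf2 the brightest probe gave 0.09, and the others gave -2.32 and -0.37, and -2.67 and -0.26, on replicates 1 and 2. Those dimmer probes were well above background in deficient cells on replicate 2 alone. For Ldha the brightest probe gave -1.14 and 0.03, while the other, 0.08 on average, gave 0.21 and -0.06. For Pfkp the second probe gave -1.49 and -0.31, beside -0.04 and 0.08 on the first. Hk1 had probes at -0.50, 0.50 and -0.94, and the second probe of Pkm gave -0.69 and 0.22. Aldoa, Pgk1 and Pmvk had second probes of the same sign on average, at 0.20, 0.43 and 0.34.

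**Figure D4:**
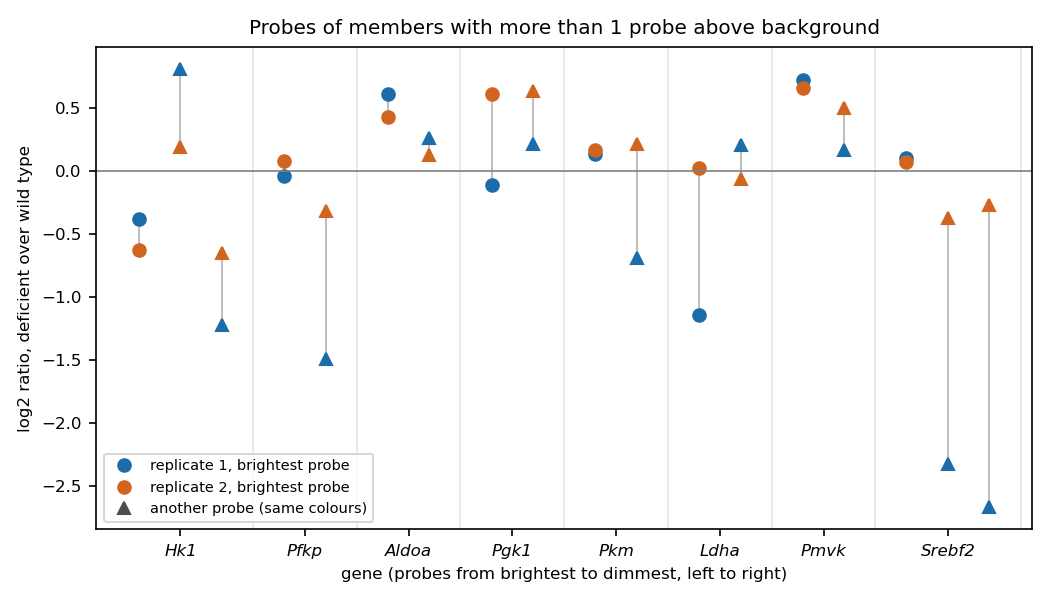
Log2 ratio of each probe above background (vertical axis) for the 8 members with more than 1, ordered from brightest to dimmest within a gene, with 1 point per array and the brightest probe as a circle. The dimmer probes of Srebf2 and Pfkp reach -2.67 and -1.49 on replicate 1, while their brightest probes stay near 0.

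Other genes that feed or steer the same pathways gave 2 calls each, among 19 and 22 tested, where 9.64% of all genes were called. Of 26 further genes of glucose use 19 were tested, with 1 higher and 1 lower and a median of 0.00. Hk3, a hexokinase of myeloid cells, was higher (0.92 and 1.97; limma adjusted p = 0.0112), and Myc, a transcription factor that drives glycolytic genes in activated T cells, was lower (-1.72 and -1.42; limma adjusted p = 0.00474). Of 24 further genes of sterol supply and export 22 were tested, with 2 higher and 0 lower and a median of -0.08. Nr1h3, the sterol-sensing receptor LXR alpha of macrophages, was higher (1.88 and 1.81; limma adjusted p = 5.4e-04), as was Abcg1, a sterol exporter (1.77 and 1.12; limma adjusted p = 0.0110).

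Markers of other cells moved in the same samples. All 15 measured of 19 macrophage markers were higher, with a median of 3.01, and the sum of their normalised signals was 20135 to 31612 in wild-type and 196691 to 235278 in deficient samples. Defining macrophage markers were among them: Adgre1 at 3.35 and Csf1r at 3.25, while Mertk, Cd163, Vsig4 and Itgam were not above background. Of 7 measured B-cell markers 5 were higher, with a median of 1.69, as were 3 of 7 neutrophil markers (median 1.12) and 4 of 4 erythroid markers (median 1.44). The summed signals were 34851 to 48075 in wild-type against 119360 to 210756 in deficient samples for B cells, 10212 to 12563 against 51386 to 87846 for neutrophils and 49595 to 123743 against 273869 to 281996 for erythroid cells. Of 16 measured T-cell markers 7 were lower and 0 higher, with a median of -1.14 and sums of 218711 to 249632 in wild-type and 88400 to 126751 in deficient samples. Markers of dividing cells had a median of -0.33 over 7 measured genes, of which 0 passed in limma. The part of these cells in the values of Pfkfb3, Hk3, Nr1h3, Abcg1, Ldhb and Sqle was not tested. In such bulk samples fewer cells of a type and less RNA per cell cannot be told apart.

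Promoter letters were read for what the members share beyond their pathway. The RefSeq table of build GRCm38.p6 holds windows for all 16 glycolysis members and 12 of 15 sterol members, Fdps, Fdft1 and Sqle being the others, and the 250 bases before each start were searched on both strands. CCAAT, the letters bound by NF-Y, which works beside SREBP2 at sterol genes, was found in 12 of 12 sterol members and 7 of 16 glycolysis members, against 37.49% of the 27025 genes with a window. ACGTG, the core of the hypoxia response element, was found in 8 of 16 glycolysis members and 3 of 12 sterol members, against 18.49% of genes. It also lies inside CACGTG, an E box that Myc can bind, which 3 members of each pathway hold against 6.86% of genes. TCACNCCAC, a form of the sterol regulatory element, was found in Hmgcs1 and Pkm alone, against 1.22% of genes, and GGGCGG in 10 of 16 and 11 of 12, against 35.36%. Genes with several windows had more chances of a match. A match is not a binding site, and these arrays do not measure binding.

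The promoters shown belong to Pfkfb3 and Ldhb, called higher and lower, to Ldha for its repeated ACGTG, and to Hmgcs1 and Dhcr7 for the sterol side. Capitals mark the CCAAT motif, the hypoxia response core and the sterol regulatory element named above on either strand, so their reverse complements are in capitals too.
Pfkfb3, first window, chr2:11553930-11554179, minus strand: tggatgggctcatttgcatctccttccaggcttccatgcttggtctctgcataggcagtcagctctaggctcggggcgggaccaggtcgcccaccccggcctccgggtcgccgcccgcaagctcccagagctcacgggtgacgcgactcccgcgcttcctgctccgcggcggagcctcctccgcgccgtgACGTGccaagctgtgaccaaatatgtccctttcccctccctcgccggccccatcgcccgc
Pfkfb3, second window, chr2:11502091-11502340, minus strand: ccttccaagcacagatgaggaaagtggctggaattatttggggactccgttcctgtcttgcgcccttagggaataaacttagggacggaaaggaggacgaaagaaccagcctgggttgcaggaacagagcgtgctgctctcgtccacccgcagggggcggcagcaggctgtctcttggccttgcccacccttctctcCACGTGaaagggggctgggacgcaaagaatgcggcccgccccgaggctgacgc
Ldha, first window, chr7:46845554-46845803, plus strand: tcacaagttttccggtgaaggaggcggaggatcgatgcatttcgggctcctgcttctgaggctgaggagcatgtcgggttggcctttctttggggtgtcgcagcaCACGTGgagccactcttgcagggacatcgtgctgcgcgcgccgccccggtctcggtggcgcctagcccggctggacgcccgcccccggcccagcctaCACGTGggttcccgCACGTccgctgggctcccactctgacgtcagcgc
Ldhb, only window, chr6:142507958-142508207, minus strand: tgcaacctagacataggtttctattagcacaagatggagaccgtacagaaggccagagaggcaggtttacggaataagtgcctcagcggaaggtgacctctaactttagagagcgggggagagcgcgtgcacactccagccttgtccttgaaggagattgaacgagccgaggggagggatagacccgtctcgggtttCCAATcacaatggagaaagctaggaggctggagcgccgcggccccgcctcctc
Hmgcs1, only window, chr13:119690101-119690350, plus strand: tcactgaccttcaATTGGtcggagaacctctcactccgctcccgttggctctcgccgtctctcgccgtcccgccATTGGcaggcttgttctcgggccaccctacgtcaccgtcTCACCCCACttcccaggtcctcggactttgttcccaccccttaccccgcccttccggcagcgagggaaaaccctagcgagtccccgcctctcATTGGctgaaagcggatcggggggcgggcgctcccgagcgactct
Dhcr7, last window, chr7:143829964-143830213, plus strand: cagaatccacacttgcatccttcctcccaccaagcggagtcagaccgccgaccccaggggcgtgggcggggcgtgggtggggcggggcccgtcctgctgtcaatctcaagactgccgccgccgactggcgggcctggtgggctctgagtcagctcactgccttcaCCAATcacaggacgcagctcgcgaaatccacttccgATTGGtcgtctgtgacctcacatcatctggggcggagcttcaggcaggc

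The second Pfkfb3 window holds CACGTG at 53 to 48 bases before the start, and the first holds ACGTG at 60 to 56. The first window of Ldha holds CACGTG at 145 to 140 and again at 48 to 43 bases. Its second window, not shown, holds none of the marked motifs. The ratio of Ldha lay at -1.14 and 0.03, so the letters went with a call in Pfkfb3 and with none in Ldha. Ldhb holds CCAAT at 53 to 49 bases and no ACGTG. Hmgcs1 holds TCACNCCAC at 137 to 129 bases between matches of CCAAT. The last Dhcr7 window holds CCAAT at 85 to 81 and, in reverse, at 49 to 45. Of the Dhcr7 windows not shown, the first holds none of the marked motifs. The second holds CACGTG at 164 to 159 bases and no CCAAT. The 8 glycolysis members with ACGTG ran from Pfkm at -1.08 to Pfkfb3 at 1.38, and thus lay on both sides of 0.

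The values of the members under other ways of processing the arrays ran as follows. Pfkfb3, Ldhb and Sqle kept their sign in each of the 11, 10 and 10 other settings that could be computed with a test, and none of the 3 was called in more than 5. Of the 25 members without a call, Tpi1 and Fdft1 were called in 1 setting each. Srebf2, Pfkp, Gapdh, Pkm and Hk2 changed sign in 2 or more settings, and Gpi1, Aldoa, Pgk1 and Pgam1 in 1, median centring.

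**Figure D5:**
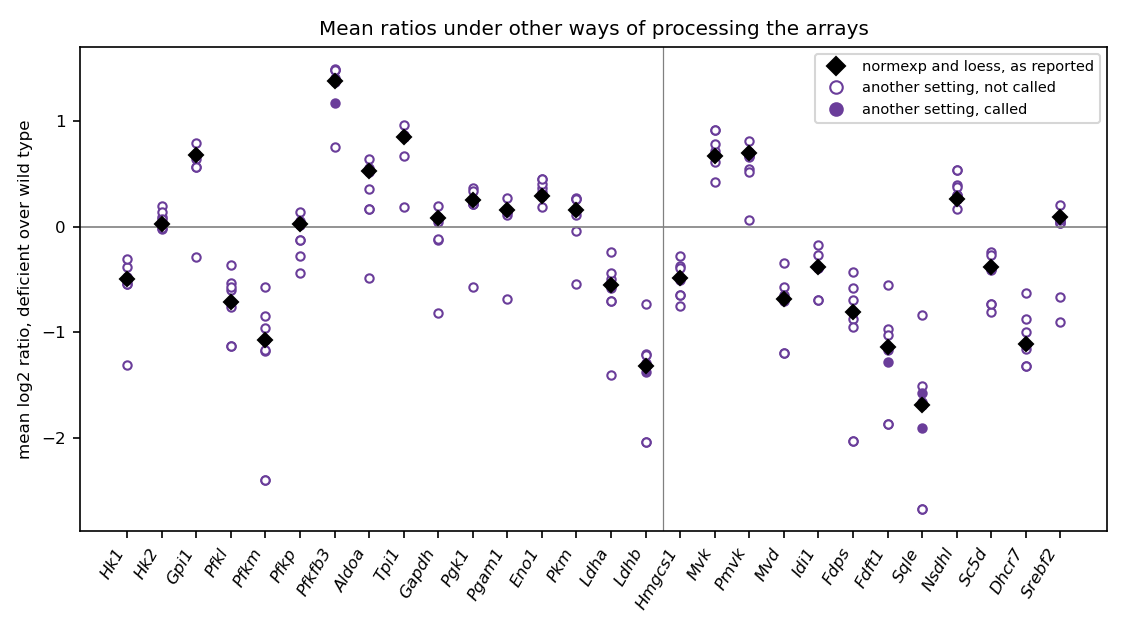
Mean log2 ratio (vertical axis) of each tested member as reported (diamonds) and under other settings with both arrays (circles, filled where called). Pfkfb3 stays above 0 between 0.75 and 1.49, Ldhb and Sqle stay below 0, and Gapdh, Pgk1, Pgam1 and Pkm have values on both sides of 0.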

How the data were processed

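RNA of 2 biological replicates was compared on 2 two-colour arrays of 1 slide with the same dye orientation. Agilent Feature Extraction 9.5.3.1 wrote the deposited scanner files, per the file headers: intensity as mean spot brightness and local background, and the program's own background-subtracted, dye-normalized log10 ratio. The deposited value table holds the same log10 ratio, deficient over wild type, within 0.00500 and 0.00493 of the scanner values, with a median of 0 in each column.

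Background was corrected with normexp (offset 50) on mean signals and local background. Ratios were normalized by loess with control spots at weight 0. Spots flagged as outliers were left out (255 and 195 gene spots), spots of a probe were averaged, and the brightest of the probes that passed stood for its gene. Of 41174 probes, 24375 were named through their accession, 8727 by matching symbols or synonyms to RefSeq (GRCm38.p6), and 8072 kept the array's name. Probe coordinates are those of the files (NCBI36). The filter kept 12622 probes for which the same channel exceeded background clearly on each array. Mean ratios were set against 0 in limma 3.58.1, run in R 4.3.3 (two-sided, Benjamini-Hochberg over 9931 genes), on 1 residual degree of freedom per gene and a prior variance of 0.350 with infinite prior degrees of freedom. The fit was also run on simulated arrays with normal noise of 1 common variance, taken from the fit itself. Such arrays lack the unequal spread of the real ones (SD of gene ratios 0.96 and 0.65), so that run does not test its effect. The number of arrays limits the precision.

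A bound compares the brighter group's mean with, per array, the dim probe's own signal or, if higher, the lowest one that cleared background in its channel, after loess and Aquantile, and is open to dye bias. Alternatives were Feature Extraction's ratios, the deposited table, no background correction, offset 16, median centring, centring on the genes' median, averaging a gene's probes, no filter, a filter on both channels, separate channels (statmod 1.5.0), each array alone and, chosen after seeing the data, the fitted background surface. The members and all lists were chosen with earlier results of these data known. All members are named, and of other pathway genes those that passed.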

Additional observations from a re-analysis of the deposited data

How the results depend on the processing

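The count of 957 genes called was 115 with Feature Extraction's ratios and with the deposited value table, which repeats them, 482 without background correction, 417 with median centring and 418 with the fitted background surface. In limma it was 0 when the channels were fitted separately, where 1990 genes had an unadjusted p under 0.05, and 0 without the filter on dim probes, where 5116 had. The share of lower genes among calls was 62.0% as reported, 83.5% with median centring, 51.0% centred on the genes' median, 43.3% with the fitted surface, 39.2% without background correction and 28.1% with both channels above background.

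Glycolysis members called numbered 2 as reported, 1 without background correction, and 0 with Feature Extraction's ratios, the deposited table, median centring, no filter, the fitted surface or separate channels. Sterol members called numbered 1 as reported, 2 with an offset of 16 (Fdft1, limma adjusted p = 0.0417, beside Sqle), and 0 with Feature Extraction's ratios, the deposited table, no background correction, median centring, no filter, both channels above background or separate channels. With both channels required Sqle, Ldhb, Fdft1 and 8 other members could not be tested, and Tpi1 passed (limma adjusted p = 0.0480).

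The glycolysis median moved to -0.54 with median centring, and the sterol median to 0.091 with both channels above background. The sterol median minus the glycolysis median was -0.56 as reported, -0.78 with Feature Extraction's ratios and with the deposited table, -0.36 without background correction, -0.14 with median centring and -0.11 with both channels. With 1 array left out the glycolysis median was -0.09 and 0.27, the sterol median -0.71 and -0.20, and the difference -0.62 and -0.47. The median of all genes was -0.12 as reported, -0.41 with median centring and -0.24 with Feature Extraction's ratios.

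Among single members under settings that use both arrays, 259 values kept sign and side of the threshold, 19 lost a call, 2 gained a call and 17 changed sign, none of the last a call. With median centring these were Gpi1 (-0.28), Pfkp (-0.28), Aldoa (-0.49), Gapdh (-0.82), Pgk1 (-0.57), Pgam1 (-0.69), Pkm (-0.54) and Srebf2 (-0.67). With Feature Extraction's ratios and with the deposited table they were Hk2 (-0.019 and -0.018), Pfkp (-0.13 in both) and Gapdh (-0.12 in both). With the mean of probes they were Pfkp (-0.44), Pkm (-0.040) and Srebf2 (-0.91). The cause of these changes was not tested.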
